A study of Rattus norvegicus with 18 samples.

Results

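Myeloid lineage transcription factors were followed in the hippocampus of rats after pilocarpine-induced status epilepticus (SE). The factors were chosen by name, as the probes annotated to Runx1, Spi1, Irf8, Cebpa, Cebpb, Cebpd, Prdm1 and Ikzf1. Of these 8 genes, 6 had a probe, out of 12331 genes with a tested probe, and Spi1 and Cebpb were not analysed here. The 6 genes were measured by 8 of the 33849 gene probes. Expression was read from labelled cRNA, made from total RNA, on 18 CodeLink Rat Whole Genome arrays, 1 for each hippocampal sample. The rats were adult male Wistar rats. The pilocarpine groups had received scopolamine methylnitrate followed by pilocarpine, a muscarinic agonist that induces SE, and their SE was interrupted with diazepam. They were examined on day 3 (D3, n = 5) or day 7 (D7, n = 5) after SE, or just after the first spontaneous seizure (Chronic, n = 5). The saline-treated rats (Control, n = 3) comprise 1 control of each of the 3 times, replicate 26 for D3, replicate 36 for D7 and replicate 47 for Chronic. Rats without SE, and those that died, were left out of the pilocarpine groups, which limits these as a model of all treated animals, and agents given to these rats beside pilocarpine cannot be told apart from SE.

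The microglia of the brain, the macrophages of tissues and the monocytes and neutrophils of the blood are myeloid cells. Their identity is set by a small network of DNA-binding proteins. PU.1, encoded by Spi1, and RUNX1 act at the top of this network. IRF8 works with PU.1 in microglia and monocytes, and C/EBPα directs the granulocyte and monocyte branch. C/EBPβ and C/EBPδ are induced by inflammatory cytokines, C/EBPδ also in astrocytes. PRDM1, also called Blimp-1, is a repressor known from plasma cells and macrophages, and IKZF1 (Ikaros) is best known from lymphoid cells.

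Cebpd, Prdm1 and Runx1 were higher after SE, Cebpa rose by less than 2-fold, and Irf8 and Ikzf1 were not called at any time. Cebpd was 4.53-fold above Control at D3 and Runx1 was 4.0-fold above Control in Chronic. A gene is called here if it changed by at least 2-fold with an adjusted p under 0.05, from limma with Benjamini-Hochberg adjustment over 33800 probes. At D3, 2 of the 6 factors (Cebpd and Prdm1) were called higher, against 3.42% of all probes. At D7, 3 of 6 (Cebpd, Prdm1 and Runx1) were called higher, against 3.06% of all probes, and the same 3 genes were called in Chronic, against 2.28%. No factor was called lower by limma, against 1.17% of all probes at D3, 0.432% at D7 and 0.612% for Chronic. For a lower level, 0 of the 6 factors had an unadjusted p under 0.05, and no share of all probes is given for this limit. The median log2 fold change of the 6 genes was 0.90 at D3, 1.0 at D7 and 0.94 in Chronic, beside medians over all named genes of -0.10, -0.12 and -0.12. In a piece of whole hippocampus, more or fewer cells of a type and more or less RNA per cell cannot be told apart, and this holds for every value given here.

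The promoters of 4 of the factors are shown because they are the regions in which these genes can be read side by side. Runx1 and Prdm1 were called higher, while Cebpa, which rose by less than 2-fold, and Irf8 were not called. Each is the 300-base window around the RefSeq start of the gene in the rat assembly GRCr8, written 5′ to 3′ on the strand of the gene, and capitals mark matches to 6 short motifs. The motifs were GAGGAA for ETS factors such as PU.1, TGTGGT for RUNX, TTNNGCAA for C/EBP, TTCNNNGAA for STAT, GAAANNGAA for IRF and TGACGTCA for CRE, searched on both strands. Runx1 lies at chr11:45421276-45421575 on the minus strand, Prdm1 at chr20:49564039-49564338 on the minus strand, Cebpa at chr1:96896334-96896633 on the plus strand and Irf8 at chr19:65699034-65699333 on the plus strand.
Runx1: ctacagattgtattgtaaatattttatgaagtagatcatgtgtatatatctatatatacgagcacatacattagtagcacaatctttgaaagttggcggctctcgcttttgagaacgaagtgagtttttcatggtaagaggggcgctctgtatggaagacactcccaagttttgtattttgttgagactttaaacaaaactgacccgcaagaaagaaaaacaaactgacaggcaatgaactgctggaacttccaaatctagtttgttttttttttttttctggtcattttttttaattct
Prdm1: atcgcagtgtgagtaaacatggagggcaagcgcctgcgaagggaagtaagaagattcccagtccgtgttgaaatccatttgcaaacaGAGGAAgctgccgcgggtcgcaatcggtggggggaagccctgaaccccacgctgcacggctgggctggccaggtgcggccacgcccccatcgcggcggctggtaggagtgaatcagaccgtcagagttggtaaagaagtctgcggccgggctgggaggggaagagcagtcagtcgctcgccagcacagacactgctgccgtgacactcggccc
Cebpa: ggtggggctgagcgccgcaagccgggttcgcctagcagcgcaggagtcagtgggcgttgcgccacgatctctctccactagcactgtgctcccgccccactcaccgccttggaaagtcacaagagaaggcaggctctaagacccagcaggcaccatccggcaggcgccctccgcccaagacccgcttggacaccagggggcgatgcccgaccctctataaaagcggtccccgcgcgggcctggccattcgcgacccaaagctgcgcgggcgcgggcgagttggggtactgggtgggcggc
Irf8: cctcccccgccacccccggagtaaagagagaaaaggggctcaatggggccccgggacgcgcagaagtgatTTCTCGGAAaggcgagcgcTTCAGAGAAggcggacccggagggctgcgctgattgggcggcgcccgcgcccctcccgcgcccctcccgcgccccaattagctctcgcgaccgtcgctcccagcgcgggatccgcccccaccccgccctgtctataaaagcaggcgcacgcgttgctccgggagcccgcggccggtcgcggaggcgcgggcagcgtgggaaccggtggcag
Runx1 had the window poorest in G and C, at 34.3%, against 62.3% for Prdm1, 68.7% for Cebpa, 72.3% for Irf8 and a median of 51.7% over 33469 windows. The Irf8 window held 2 STAT matches, at bases 71 to 79 and 90 to 98 counted from its 5′ end, and 8.87% of all windows held at least 1. Prdm1 held an ETS match at bases 88 to 93, as did 27.6% of all windows. Neither Runx1 nor Cebpa held any of the 6 motifs, of which RUNX was found in 17.3%, C/EBP in 10.6%, IRF in 9.71% and CRE in 1.83% of all windows. A TATAAA box, found in 14.2% of windows, lay at bases 216 to 221 in Cebpa and at bases 222 to 227 in Irf8. The windows of Ikzf1 and Cebpb were also read, and that of Ikzf1 held an ETS match at bases 10 to 15. A match is a run of letters and is not a site shown to be bound.

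Cebpd, the C/EBP factor induced by cytokines, had the largest rise among the 6 genes at D3 and D7 and ranked 127 of 12331 genes by fold change at D3. Its normalized intensity, on a linear scale on which the median spot of an array lies near 1, was 4.68, 5.11 and 5.38 in Control and 20.7, 21.5, 23.6, 25.2 and 23.7 at D3. It was 19.4, 14.4, 21.4, 16.0 and 15.8 at D7 and 15.2, 15.1, 11.8, 23.3 and 23.1 in Chronic. All 15 arrays after SE lay above the highest control, and Chronic fell into 3 arrays at or under 15.2 and 2 arrays above 23. The share of all probes that lie apart from the 3 controls in this way is not given, here or for the genes below. Such a separation is therefore only a description of these arrays. The log2 fold change over Control was 2.18 ± 0.18 at D3 (standard error, limma adjusted p = 5.1e-07), 1.77 ± 0.18 at D7 (9.99e-06) and 1.76 ± 0.18 in Chronic (2.1e-05). Cebpd was called at all 3 times with each array left out in turn, and also when each group was compared with its own control array alone. A further probe, which the platform annotation assigns to Sec16a or Cebpd, was not counted as a member. It lay between 9.19 and 13.5 after SE and between 12.4 and 13.4 in Control.

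Runx1, which works with the partner CBFβ at the start of the blood cell lineages, was higher at D7 and in Chronic. Its normalized intensity was 0.593, 0.828 and 0.477 in Control and 1.02, 1.38, 0.782, 2.5 and 1.25 at D3. It was 2.95, 1.15, 2.58, 1.78 and 1.98 at D7 and 2.49, 1.57, 1.61, 2.62 and 5.51 in Chronic. D3 overlapped Control through replicate 13, while all arrays of D7 and Chronic lay above the highest control, and Chronic replicate 45 was the highest of all 18. The log2 fold change over Control was 1.05 ± 0.38 at D3 (limma adjusted p = 0.0551), 1.69 ± 0.38 at D7 (0.00661) and 2.00 ± 0.38 in Chronic (0.00304), that is 2.07-fold, 3.22-fold and 4.0-fold. By fold change Runx1 ranked 680 of 12331 genes at D3, 198 at D7 and 72 in Chronic. Between Chronic and D3 the difference was 0.95 ± 0.33 with a limma adjusted p of 0.145, so a further rise from D3 to Chronic was not called. Without D3 replicate 13 the change at D3 was 1.23 with an adjusted p of 0.0304. Without Chronic replicate 45 the gene stayed called in Chronic, since the lowest change over the 8 fits that leave out 1 array was 1.71 there. Against the control array of the same time alone, Runx1 was not called at D7 (1.26, limma adjusted p = 0.237) or in Chronic (2.37, 0.107).

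Prdm1, the gene of Blimp-1, was about 2-fold higher at each time, at a low signal. Its brightest probe measured 0.165, 0.328 and 0.414 in Control and 0.664, 0.606, 0.656, 0.493 and 0.509 at D3. It measured 0.857, 0.415, 0.834, 0.471 and 0.653 at D7 and 0.790, 0.383, 0.591, 0.555 and 0.695 in Chronic. Every D3 array lay above the controls, the lowest D7 array was level with the highest control, and Chronic replicate 42 lay below it. The log2 fold change was 1.04 ± 0.30 at D3 (limma adjusted p = 0.0162), 1.14 ± 0.30 at D7 (0.0138) and 1.06 ± 0.30 in Chronic (0.0229). On 2 of the 3 control arrays the spot carried the flag L for low signal, and with these controls raised to the lowest signal flagged good the folds were 1.70, 1.81 and 1.71. The calls rested on Control replicate 26, without which the changes were 0.66, 0.75 and 0.67 with limma adjusted p-values of 0.147, 0.111 and 0.176. In Chronic the call was also lost without Control replicate 36 (adjusted p = 0.0517) and without Chronic replicate 41 (0.0564), and the change was just under 2-fold without Chronic replicate 45 and, at D3, without D3 replicate 11. Against the control array of the same time alone, Prdm1 was called at D3 (1.82, limma adjusted p = 0.0139) and not at D7 (0.92, 0.199) or in Chronic (0.50, 0.629). The remaining 2 Prdm1 probes were flagged L on all 18 arrays and gave no level.

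Cebpa, the C/EBP factor of the granulocyte and monocyte branch, rose without reaching 2-fold. Its normalized intensity was 0.417, 0.577 and 0.655 in Control and 0.963, 0.925, 0.863, 0.827 and 0.975 at D3. It was 1.12, 0.740, 1.42, 0.836 and 0.953 at D7 and 0.942, 0.758, 0.832, 0.830 and 1.56 in Chronic. All 15 arrays after SE lay above the 3 controls, with D7 replicate 33 and Chronic replicate 45 the highest, and the share of all probes that do so is not given. The log2 fold change was 0.75 ± 0.23 at D3 (limma adjusted p = 0.0230), 0.87 ± 0.23 at D7 (0.0139) and 0.81 ± 0.23 in Chronic (0.0226). By the adjusted p alone, with no limit on the fold, Cebpa was higher at all 3 times, as were 7.91% of all probes at D3, 6.2% at D7 and 4.86% for Chronic. Without Control replicate 26 the limma adjusted p was 0.146 at D3, 0.0915 at D7 and 0.138 for Chronic, and without Control replicate 36 it was 0.0526 at D3 and 0.0606 in Chronic. Without Control replicate 47 the change at D7 was 1.01 and was called. Against its own control array alone, the limma adjusted p was 0.0631 at D3, 0.206 at D7 and 0.528 in Chronic.

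Irf8, the partner of PU.1 in microglia, stayed near its control level in most arrays. Its normalized intensity was 1.04, 0.974 and 0.990 in Control and 1.12, 0.958, 0.922, 1.03 and 0.917 at D3. It was 0.861, 0.900, 1.52, 0.873 and 1.44 at D7 and 0.809, 0.992, 0.994, 0.882 and 1.10 in Chronic. The groups overlapped at every time, and D7 replicates 33 and 35 stood above all other arrays. The log2 fold change was -0.02 ± 0.18 at D3, 0.11 ± 0.18 at D7 and -0.07 ± 0.18 in Chronic (limma adjusted p = 0.959, 0.717 and 0.838). The 95% confidence intervals of the fold ran from 0.757 to 1.29 (D3), from 0.830 to 1.41 (D7) and from 0.729 to 1.24 (Chronic), so each of them left out a 2-fold rise. All 18 spots of this probe were flagged good.

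Ikzf1, the Ikaros gene, lay close to background. Its normalized intensity was 0.538, 0.415 and 0.318 in Control and 0.484, 0.270, 0.133, 0.209 and 0.425 at D3. It was 0.444, 0.392, 0.324, 0.452 and 0.204 at D7 and 0.409, 0.463, 0.433, 0.262 and 0.282 in Chronic. No array after SE exceeded the highest control, and all 3 groups overlapped Control. The log2 fold change was -0.60 ± 0.37 at D3, -0.25 ± 0.37 at D7 and -0.20 ± 0.37 in Chronic (limma adjusted p = 0.272, 0.695 and 0.772). The spot was flagged good on 2 of the 5 D3 arrays, 3 of 5 at D7, 3 of 5 in Chronic and 2 of 3 in Control, and the 95% interval at D3 ran from 0.388-fold to 1.13-fold.

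**Figure D1:**
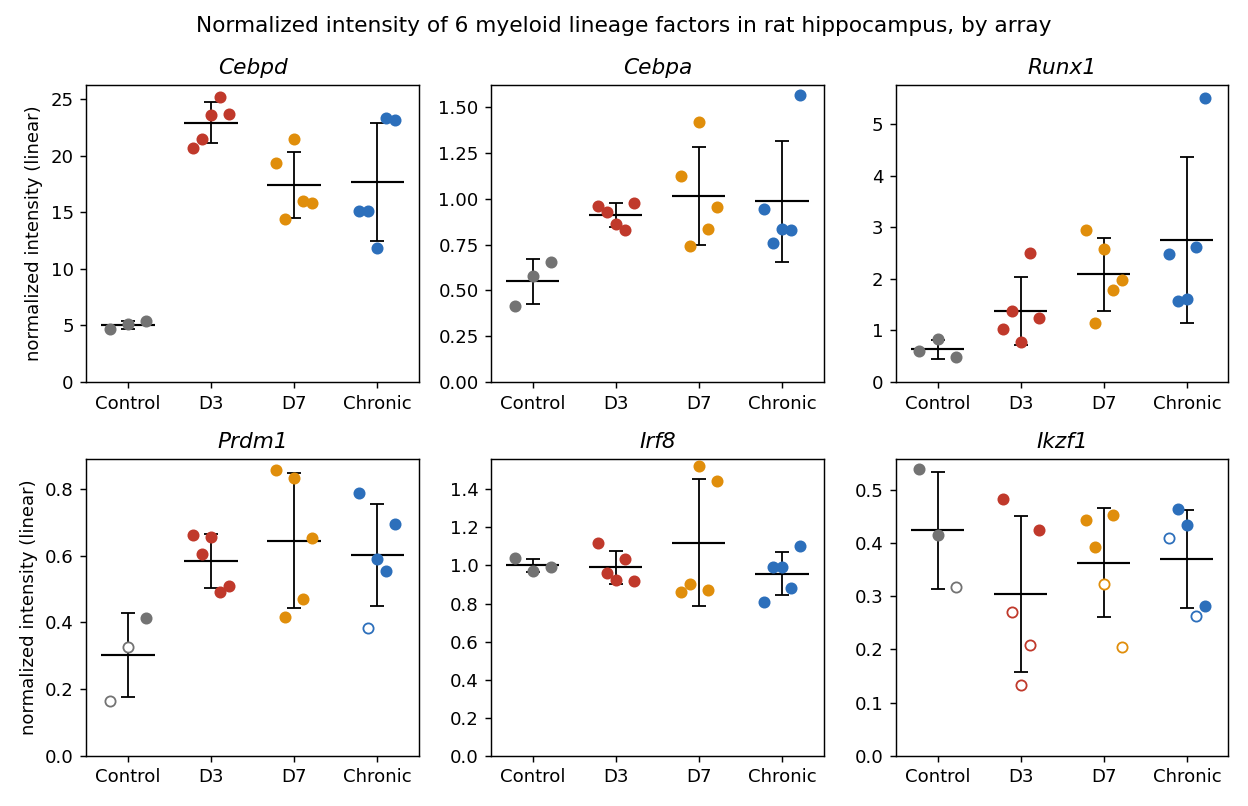
Normalized intensity (linear, the median spot of an array near 1) of the probe standing for each of 6 factors, by group, with 1 point per array, the mean as a bar and the SD as whiskers. Open points are spots flagged L for low signal. The Cebpd and Cebpa points after SE all lie above the controls, D3 replicate 13 overlaps the controls for Runx1, and for Irf8 only D7 replicates 33 and 35, at 1.52 and 1.44, stand apart.

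Across the plot of intensities by array, the spread within a group differed between the genes. Cebpa had an SD of 0.0637 at D3 and 0.330 in Chronic, and Runx1 an SD of 0.662 at D3 and 1.61 in Chronic. Cebpd had an SD of 1.84 at D3 and 5.23 in Chronic. Chronic replicate 45 was the highest of its group for Runx1, Cebpa and Irf8 and the second highest for Cebpd and Prdm1.

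**Figure D2:**
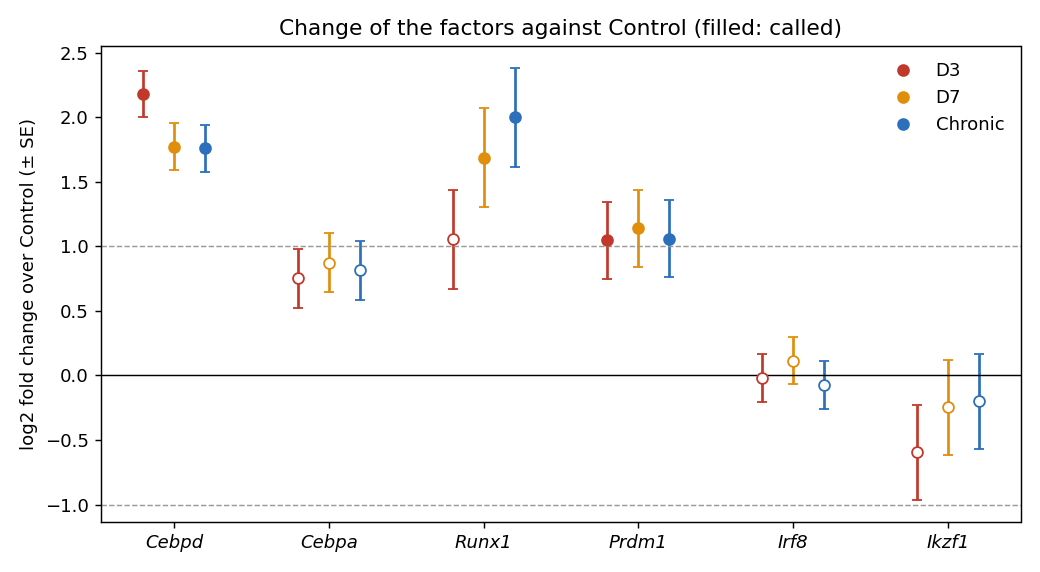
Log2 fold change over Control (y axis) of the 6 factors at D3, D7 and Chronic, with the standard error of the limma model as whiskers. Filled points are called, open points are not, and dashed lines mark a 2-fold change. Cebpd is highest at D3 (2.18), Runx1 is open at D3 (1.05) and filled at D7 and in Chronic, and Cebpa stays between 0.75 and 0.87.

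No factor was called between 2 of the times after SE. The limma test gave 0 of 6 between D7 and D3, 0 of 6 between Chronic and D3 and 0 of 6 between Chronic and D7, where 0.322%, 0.743% and 0.0503% of all probes were called in either direction. At an unadjusted p under 0.05 there was 1 gene between D7 and D3, Cebpd, and there were 2 between Chronic and D3, Cebpd and Runx1. The share of all probes at that limit is not given here. Cebpd was 0.41 ± 0.16 lower on the log2 scale at D7 than at D3 (limma adjusted p = 0.264) and 0.42 ± 0.16 lower in Chronic than at D3 (0.170). In the plot of fold changes the Chronic point lies below the D3 point for Cebpd and above it for Runx1, and neither difference passed the threshold. Between D7 and Chronic the log2 change was -0.01 ± 0.16 for Cebpd and 0.31 ± 0.33 for Runx1. The Chronic rats had just had a seizure, so time since SE and a recent seizure cannot be told apart in that group.

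The factors were set beside the cell types that could hold their RNA, through lists of marker genes. On the neuron list, Camk2a and Prox1 mark hippocampal excitatory neurons, and both were flagged good on all 3 control arrays. The tissue thus carried these markers of its label. Snap25, a further neuron gene of the list, was flagged good on 0 of 3 control arrays and on 1 array after SE, of D3. The summed normalized intensity of the list was 160.5 to 173 in Control. After SE the sum was lower, with 91.8 to 134 in Chronic, 73.8 to 132 for D7 and 93.2 to 108 for D3. The microglia list had 13 measured genes, and its sum was 127 to 135 in Control. After SE it was 192 to 318 in Chronic, 226 to 486 at D7 and 277 to 337 at D3. Of these 13 genes, 8 were called higher at D3, 9 at D7 and 7 for Chronic, and their median change was 1.37, 1.34 and 1.02. Leaving out each array in turn, for this list and those that follow a check chosen after seeing the data, gave 7 to 9 calls at D3, 8 to 10 at D7 and 5 to 7 for Chronic. Olfml3, named after its values were seen, went the other way at D3, with 44.1 to 47.9 in Control, at most 39.1 at D3 and a change of -0.39 ± 0.11 (limma adjusted p = 0.0133), under 2-fold. It was the only lower gene of the list at an unadjusted p under 0.05 at D3, and there was 1 in Chronic and 0 at D7. The complement genes C1qc, C1qb and C1qa and the fructose transporter gene Slc2a5 changed most, C1qc by 2.51 ± 0.28 at D3 (limma adjusted p = 1e-05). Trem2, a microglial receptor, was flagged L on all 18 arrays. The part of these cells in the changes of Runx1, Cebpd, Prdm1 and Cebpa was not tested.

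The factors were then read against the mean of the microglia list on each array. Over the 18 arrays Pearson's r with this mean was 0.83 for Cebpa, 0.82 for Cebpd, 0.78 for Prdm1, 0.57 for Runx1, 0.45 for Irf8 and -0.27 for Ikzf1, as a description of arrays that share their groups. About the group means r with the microglia mean was 0.79 for Irf8, 0.68 for Cebpa, 0.50 for Prdm1, 0.22 for Runx1 and 0.21 for Cebpd. Other lists ran with the factors to a like degree. Over the 18 arrays Cebpd had an r of 0.86 with the T and B cell list and 0.83 with the astrocyte list, Cebpa 0.83 with the T and B cell list and Runx1 0.64 with it. About the group means Runx1 had 0.60, Cebpd 0.63 and Cebpa 0.72 with the T and B cell list, Prdm1 0.70 with the endothelial list and Irf8 0.58 with the choroid plexus list. With the monocyte and neutrophil list r over the 18 arrays and about the group means was 0.75 and 0.61 for Prdm1. It was 0.68 and 0.49 for Cebpa, 0.60 and 0.22 for Cebpd, and 0.50 and 0.36 for Runx1. With the neuron list r over the 18 arrays was -0.83 for Cebpd, -0.71 for Prdm1, -0.70 for Cebpa and 0.44 for Ikzf1. The means of the T and B cell, monocyte and neutrophil, microglia, neuron and choroid plexus lists include genes with no control spot flagged good, which limits their r values. The D7 replicates 33 and 35, highest in Irf8, also had the highest microglia means of D7, 2.03 and 1.63 above Control on the log2 scale, against 0.84 to 1.2 in the other D7 arrays. These 2 arrays also had high choroid plexus markers, 2.73 and 1.91 above Control, while D7 replicates 31, 32 and 34 were between -2.0 and -1.35. Within Control the choroid list ranged from -1.42 to 1.56.

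**Figure D3:**
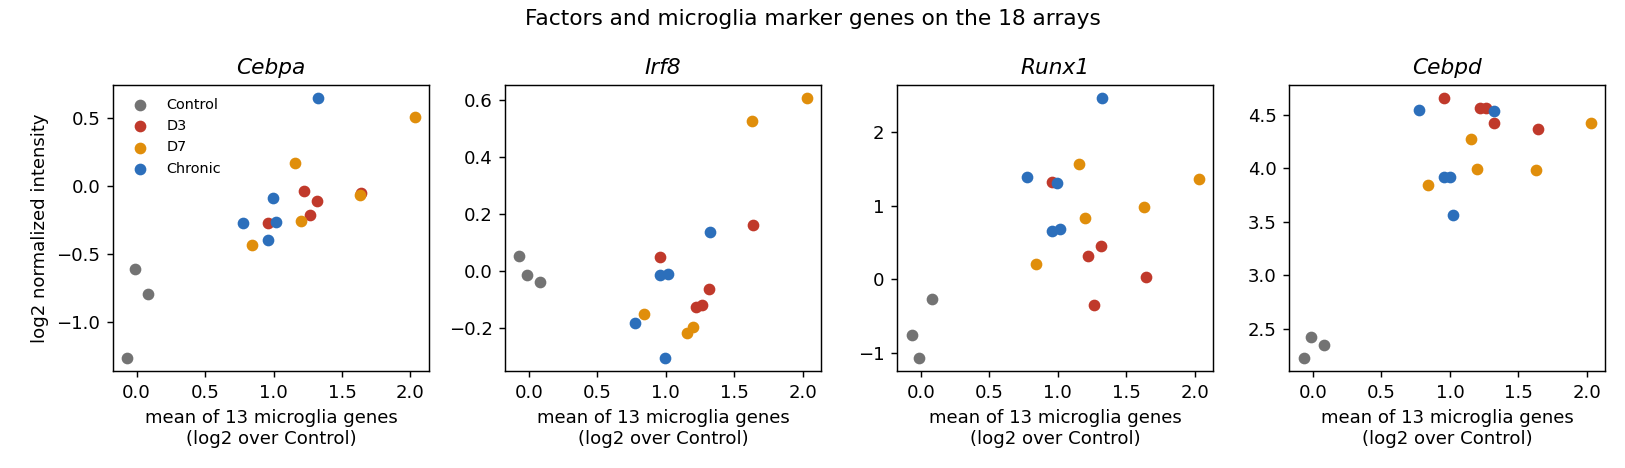
Log2 normalized intensity of Cebpa, Irf8, Runx1 and Cebpd (y axis) against the mean log2 difference of 13 microglia marker genes from Control (x axis), with 1 point per array coloured by group. Cebpa rises with the microglia mean, the pair of high Irf8 points are D7 replicates 33 and 35 at means of 2.03 and 1.63, and the highest Runx1 point is Chronic replicate 45 at a mean of 1.32.

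Some markers of blood-borne myeloid cells were also higher. The monocyte and neutrophil list had 12 measured genes, of which 4 were called higher at D3, 5 at D7 and 2 for Chronic, and its sum was 6.47 to 10.7 in Control. After SE the sum was 24.8 to 37.3 in Chronic, 20.8 to 99.9 at D7 and 52.8 to 69.3 at D3. At D3, S100a4, a calcium-binding protein gene that other cells also express, made up most of this sum, with 42.7 to 61.8 against 2.54 to 4.48 in Control. F13a1 was called at all 3 times, but 1 of its 3 control spots was flagged good, and with the controls raised to the lowest good signal its folds were 1.98, 1.99 and 1.76. Without Control replicate 26 F13a1 was called at no time. Plac8 was called at D3 and D7, each lost without Control replicate 26 or 36, and Fcnb at D3, where its fold was at least 4.83 over controls that were not well above background. Without Control replicate 26 the list had 2 calls at D7, and it had 3 without Control replicate 36, D7 replicate 31 or D7 replicate 33, while without Chronic replicate 44 it had 4 in Chronic. Ccr2, the receptor that marks inflammatory monocytes, was flagged L on all control and Chronic arrays and good on 2 of 5 arrays at D3 and 2 of 5 at D7. The neutrophil genes S100a8, S100a9 and Mpo, named after their values were seen, peaked in D7 replicate 31 at 12.6, 43.5 and 7.98, where the D7 medians were 0.476, 1.96 and 0.135. That array was the highest of D7 for Runx1 (2.95) and Prdm1 (0.857). Without it and without each other array in turn, Runx1 stayed called at D7, with changes from 1.5 to 1.90. The part of these cells in the results was not tested.

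Among other cell types, the T and B cell list had 3 of 11 genes called higher at each time, Cd22, Sdc1 and Cd5, while Cd3d, Cd3e, Lck and Cd79b were not called. No control spot of these 3 called genes was flagged good. At D3, D7 and in Chronic the fold was at least 2.65, 2.72 and 4.93 for Cd22. It was at least 2.46, 1.47 and 1.38 for Sdc1 and at least 1.57, 2.05 and 1.53 for Cd5. Without Control replicate 26 the T and B cell list had 1 call in Chronic, and Cd22 lost its call at D3 and D7 without any 1 of the 3 controls. The sum of the list ranged from 6.68 to 7.62 in Control and from 7.26 to 13 after SE. The astrocyte list had 2 of 10 genes called at each time, the intermediate filament genes Gfap and Vim, by 2.15 ± 0.17 and 2.81 ± 0.27 at D3, and its sum was 404 to 416 in Control, 522 to 547 (D3), 488 to 515 (D7) and 353 to 479 (Chronic). At an unadjusted p under 0.05, 2 astrocyte genes were lower at D3 and 2 in Chronic. The endothelial list had 0 of 9 genes called by limma at any time, with 2 higher and 1 lower at D3 at an unadjusted p under 0.05 and 1 called at D3 without Control replicate 47. Of 9 neuron genes, 3 were called lower at D3, Calb1, Pvalb and Camk2a, and 1 in Chronic, Calb1. Camk2a fell short of 2-fold without D3 replicate 12 and Pvalb without Control replicate 36, and 1 neuron gene was called lower at D7 without D7 replicate 34. The shares of these cells in the changes of the factors were not tested.

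The genes most like each factor over the 18 arrays, among 11184 named genes measured on all arrays, were read by Pearson's r of the log2 values. Cebpd ran with Gfap (r = 0.95), Lgals3 (0.94) and Ssc5d (0.94). Runx1 ran with Sdc4 (0.87), a cell surface proteoglycan gene, Chsy1 (0.83), an enzyme of chondroitin synthesis, and the adhesion molecule gene Icam1 (0.83). Cebpa ran with Fes, Otulinl and Lsp1 (0.92 each), of which Fes and Lsp1 are known from leukocytes. Prdm1 ran with Ccdc125 (0.89), Fcna (0.89) and Lsp1 (0.88), and Irf8 with Asb2 (0.87), Gna15 (0.83) and Tnni2 (0.79). For Ikzf1, which lay close to background, the nearest were Cstl1 (0.78), Rhox3 (0.75) and Kif16b (0.72). All these genes were picked as the highest r among 11184 over 18 arrays, a choice that by itself gives high values, so they are a description. About the group means the r of Cebpd with Gfap was 0.46, while that of Irf8 with Gna15 was 0.92 and that of Cebpa with Otulinl 0.92. Among the factors themselves the closest pair was Cebpa and Prdm1 (0.88), followed by Cebpa and Cebpd (0.77) and by Runx1 and Cebpa (0.77).

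Related genes were read next, as paralogs and partners of the factors and as other regulators. Of 28 paralogs and partners, 19 were measured, 2 were called higher at each time and 0 were called lower by limma, with 2, 1 and 1 lower at D3, at D7 and in Chronic at an unadjusted p under 0.05. Runx3 was called at D3, at least 1.80-fold over controls flagged L (limma adjusted p = 0.00745), and Irf1, named after its value was seen, at D3 and D7 by 1.01 ± 0.27 and 1.02 ± 0.27. Irf5, a factor of Toll-like receptor signalling, was called at D7 by 1.23 ± 0.35 (limma adjusted p = 0.0221). At D7 replicate 33 held 5.75 of Irf5 against a median of 1.93, and replicate 35 held 5.69 of Irf1 against a median of 2.28. Without D7 replicate 33, without D7 replicate 35, without Control replicate 26 or without Control replicate 36 neither gene was called at D7, and the list had 0 calls there. Without D7 replicate 33 the change of Irf5 was 0.92 (limma adjusted p = 0.0438), and without D7 replicate 35 that of Irf1 was 0.76 (0.0247). The call of Irf1 at D3 was lost without D3 replicates 12, 14 or 15 and without Control replicates 26 or 36, and that of Runx3 without Control replicate 26, which left 0 calls at D3. In Chronic the calls were Runx2, by 1.16 ± 0.14 (0.000125), and Batf3, at least 1.82-fold over controls flagged L (0.0231), which was lost without Control replicate 36 or 47. Runx2 measured 0.699 to 0.878 in Control, 1.16 to 1.38 (D3), 1.2 to 1.71 (D7) and 1.37 to 1.93 (Chronic), so all arrays after SE lay above the controls. At D3 and D7 its changes of 0.70 ± 0.14 (limma adjusted p = 0.00176) and 0.85 ± 0.14 (0.000818) were under 2-fold. Their partner gene Cbfb changed by 0.73 ± 0.19 at D3 and 0.81 ± 0.19 in Chronic, under 2-fold. The median of the list was 0.36, 0.52 and 0.31.

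A wider list of myeloid regulators held 26 measured genes of 31. Of these, 5 were called higher at D3, 4 at D7 and 1 for Chronic, and 0 lower by limma, with 1, 2 and 3 lower at an unadjusted p under 0.05. Lyl1, a factor of blood stem cells, rose by 1.98 ± 0.22 at D3 (limma adjusted p = 1.17e-05), 1.87 ± 0.22 at D7 (4.18e-05) and 1.35 ± 0.22 in Chronic (0.00109), with 4.69 to 5.82 at D3 against 1.15 to 1.70 in Control. Sall1, which marks microglia among brain cells, was called at D3 and D7 by 1.08 ± 0.22 and 1.5 ± 0.22, and Nr1h3, the gene of the sterol receptor LXRα, at D3 and D7 by 1.36 ± 0.18 and 1.01 ± 0.18, the latter under 2-fold without Control replicate 36, D7 replicate 33 or D7 replicate 35. Maf was called at D3 and D7 by 1.11 ± 0.23 and 1.28 ± 0.23. Without Control replicate 36 or Chronic replicate 44 the list had 2 calls in Chronic. The remaining 21 genes at D3 were not called, and the median of the list was 0.06, 0.10 and 0.22.

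**Figure D4:**
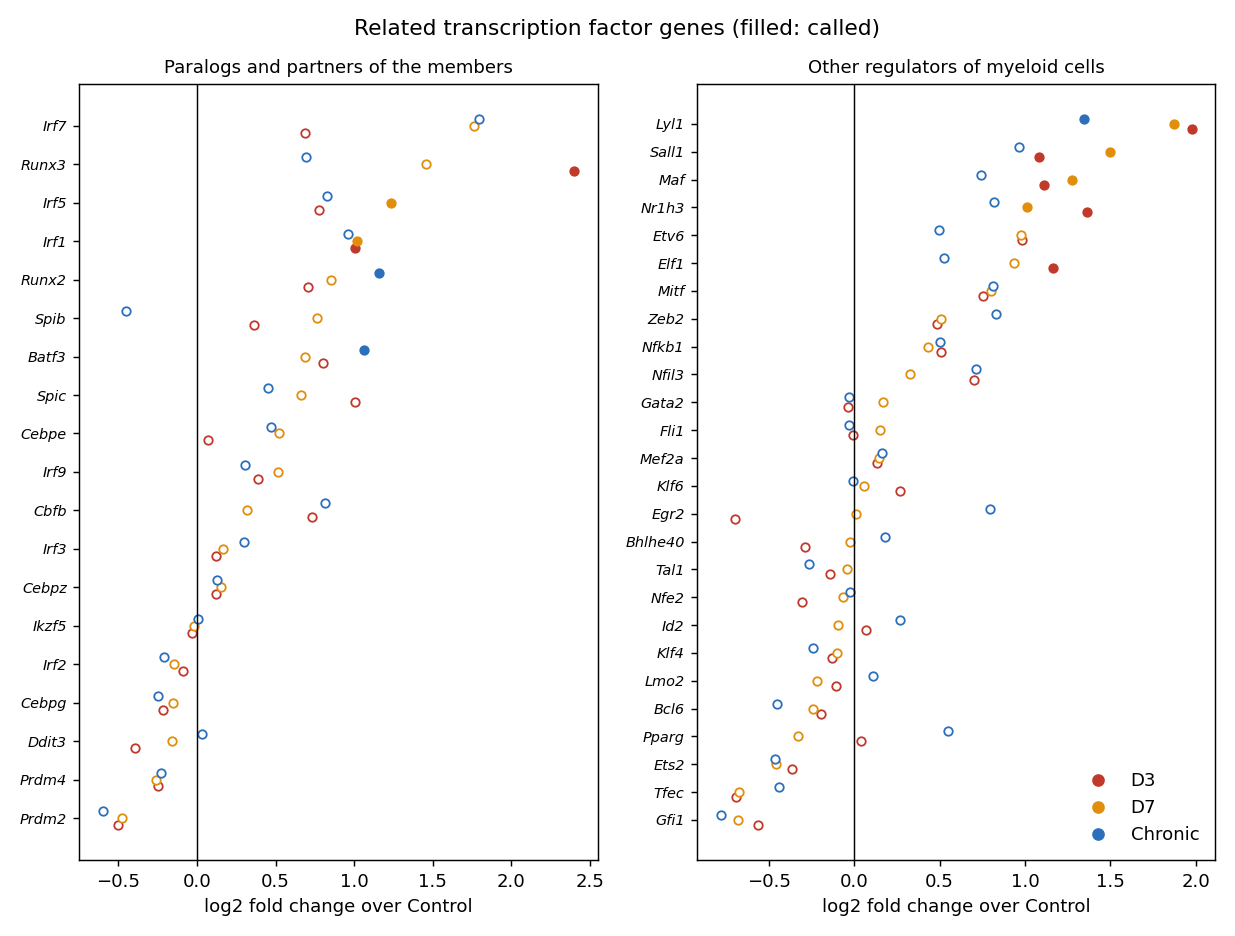
Log2 fold change over Control (x axis) of 19 paralogs and partners of the factors (left) and 26 other regulators of myeloid cells (right), coloured by time and sorted by the change at D7. Filled points are called. Lyl1 is filled at all 3 times, Runx3 at D3 alone, and most other points are open.

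The plot of related factors shows that calls among these genes were in the higher direction at every time. Signals upstream of the factors were read from 20 measured cytokine, receptor and kinase genes. With limma, 3 were called higher at D3 and 2 at D7, while Chronic had 0, with 7 higher and 1 lower at an unadjusted p under 0.05. Without Control replicate 47 there were 4 at D7 and 2 in Chronic, and without Chronic replicate 43 there was 1 in Chronic. Stat3, which drives Cebpd in other settings, was called at D3 by 1.02 ± 0.18 (limma adjusted p = 0.000671) and fell under 2-fold without Control replicate 36 (0.96) or D3 replicate 14 (0.98), and Ifngr1, a receptor chain for interferon gamma, at D3 and D7 by 1.03 ± 0.12 and 1.22 ± 0.12, at D3 under 2-fold without Control replicate 47 (0.96). Csf1r, the growth factor receptor of microglia and a target of RUNX1 and PU.1, was called at D7 by 1.34 ± 0.19 and lay under 2-fold at D3 (0.97) and in Chronic (0.93). Osmr was called at D3, but 1 of its 5 D3 spots was above the flag for low signal and no fold is given. None of the 20 genes was called lower, while the unadjusted limit gave 2 lower with 6 higher for D3, and 1 with 7 for D7. Socs3 and Il34, named after their values were seen, lay below all controls on every array after SE. Socs3 had 0.663 to 0.677 in Control and highest values of 0.580 (D3), 0.637 (D7) and 0.607 (Chronic). Il34 had 18.7 to 19.7 in Control and highest values of 15.5 (D3), 16.5 (D7) and 15.7 (Chronic).

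Genes known as targets of PU.1, RUNX1 and the C/EBP factors in myeloid cells were higher in most cases. Of 29 measured, 20 were called higher at D3, 23 at D7 and 18 for Chronic, against 3.42%, 3.06% and 2.28% of all probes. None was lower by limma, also at an unadjusted p under 0.05, and the medians were 1.75, 1.61 and 1.16. With each array left out in turn there were 18 to 21, 20 to 23 and 12 to 21 calls. Cd14, the lipopolysaccharide co-receptor, had 0.880 to 1.53 in Control and 10.8 to 24.3 at D3, a change of 3.69 ± 0.45 (limma adjusted p = 2.79e-05). Cd68, of macrophage lysosomes, changed by 3.50 ± 0.48 (D3), 3.40 ± 0.48 (D7) and 3.16 ± 0.48 (Chronic). The Fc receptor gene Fcgr3a changed by 3.22 ± 0.57 at D3. The NADPH oxidase subunit gene Ncf4 changed by 3.07 ± 0.38 at D3, where 1 of its 3 control spots was flagged good and the fold with raised controls was 7.01. Aif1 and Csf1r are also on the microglia list. The target list was chosen with earlier results of these data known, so its counts are a description. Whether the factors act on these genes here was not tested.

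Genes of the acute phase response, a class that C/EBPβ and C/EBPδ serve in liver and in inflamed tissue, were divided. Of 14 measured, 4 were called higher at D3, 4 at D7 and 5 for Chronic, and 1 lower at D3. Timp1, a protease inhibitor gene, had 1.0 to 1.93 in Control and 23.0 to 31.6 at D3, and changed by 4.42 ± 0.56 (limma adjusted p = 3.47e-05). Lcn2, a siderophore-binding protein gene, changed by 4.24 ± 0.42 at D3 and by 1.97 ± 0.42 at D7. A2m and Cp were called at all 3 times, A2m by 2.82 ± 0.15 and Cp by 2.28 ± 0.24 at D3, and Ptgs2 was called in Chronic by 1.38 ± 0.43, a call lost without any 1 of the 3 controls and without Chronic replicates 41, 44 or 45. Without Control replicate 36 the list had 3 calls in Chronic. Hp, the haptoglobin gene, was the one called lower, by -1.73 ± 0.56 at D3 (limma adjusted p = 0.0328), with 0.445, 0.705 and 2.75 in Control and 0.224 to 0.410 at D3. The highest control was replicate 36, without which the change was -0.97 with an adjusted p of 0.271, and the call was also lost without D3 replicates 11, 12 or 15. Tnf, at -0.29 at D3, was not called. All its arrays after SE lay below the controls, with 2.22 to 2.28 in Control and at most 2.11 (D3), 1.82 (D7) and 1.96 (Chronic). The same held for Orm1, named after its values were seen, with 5.20 to 5.80 in Control and at most 4.35, 5.07 and 5.15. Orm1 was not called either.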

How the data were processed

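The authors made labelled cRNA from total RNA, hybridized it to CodeLink arrays, corrected spot intensities for background and normalized them. The deposited normalized intensity is linear and divided by 1 constant per array. Gene names came from the platform annotation (16740 probes) or a RefSeq accession (205 probes). Probes naming several genes (165) or none (16739) were tested but not assigned, and 80.95% of paired annotated probes with an accession carried the accession of the array file. Spots flagged good (G) or low (L) were kept, which left out 0.699%. Before the log2 step, values under percentile 1 of an array's positive values were set to it. Good spots made up 66.0% to 76.0% of each array.

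Groups were compared in 1 model of 4 groups (limma 3.58.1, R 4.3.3, eBayes with trend) over 33800 probes, each with 3 or more values per pilocarpine group and 2 or more in Control. The adjusted p is that of Benjamini and Hochberg. A gene is represented by its probe of highest mean log2 value. Errors are standard errors of the model unless SD is written. Where all spots of Control were flagged L, a fold is "at least" that over the lowest good signal of each control array. Nothing says that arrays are from separate litters, and p-values measure the spread between these samples. The number of arrays limits the precision.

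The authors compared each group with its own controls, of which they describe several animals per time. Here 1 control array per time was analysed, and the 3 were pooled. The scripts were tested on simulated data. Promoters were read from RefSeq (GRCr8) with Python 3.11.15, and Cebpd and Spi1 had no entry. The members and the 14 lists were chosen with earlier results of these data known. Named genes are all members, up to 4 called genes with the largest change in each list, cell type markers not above background, and the 3 genes most like each member. Alternatives were the scaling, the floor, the filter on dim probes and spots, the variance prior, the fold limit, the probe, the control arrays, the t-test of the methods and leaving out each array. For genes of the other lists, leaving out each array and raising low controls were chosen after seeing the data. One gene of the list of myeloid regulators is not reported here, and the counts of that list leave it out.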

Additional observations from a re-analysis of the deposited data

How the results depend on the processing

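No paired analysis was possible because no replicate number occurs in more than 1 group. Each count of factors called higher was 2 at D3, 3 at D7 and 3 in Chronic. It was 1 at D3 with quantile normalization, with a pseudocount of 0.5 and with the methods' t-test after Benjamini-Hochberg adjustment. It was 1 at D7 and 1 in Chronic with the control array of the same time alone and with that adjusted t-test, where over all probes the calls higher at D7 fell from 1035 to 91 and in Chronic from 770 to 286. With the control array of the same time alone these were 461 and 69. Cebpd was the gene called in each of these cases, and a lone control array is assumed to vary like the other groups. At the unadjusted threshold of the methods, 3 factors were called at each time. Of 33800 probes, 1275 were called higher at that threshold at D3, 1195 at D7 and 980 in Chronic. Leaving out each array in turn gave 1 to 3 factors (D3), 2 to 4 (D7) and 2 to 3 (Chronic), with 1 at D3 without D3 replicate 11 and without Control replicate 26, and 0 between the times after SE in every such fit. Runx1 at D3 passed the threshold with scaling at percentile 75 (adjusted p = 0.0430), with probes good on at least 9 arrays (0.0442) and with low spots missing (0.0402). Prdm1 was not called at D3 and in Chronic with quantile normalization and at no time with the pseudocount. The probes of Prdm1 at background gave changes of -0.48, -0.22 and -0.81 at D3, D7 and in Chronic for one, and 0.15, 0.51 and -0.24 for the other. Both were flagged L on all arrays, so these values carry no level, and the cause was not tested. Scaling at percentile 75 moved the median change of all probes at D7 from -0.06 to 0.05. The control gene list, with 5 of 10 genes measured, had 0 calls by limma. Its median change was -0.49 at D3, -0.43 at D7 and -0.34 in Chronic, against -0.10, -0.12 and -0.12 over all named genes. At an unadjusted p under 0.05, 4 of the 5 were lower at each time, and 1 was higher at D3. By adjusted p with no fold limit, 4815 probes were lower and 2673 higher at D3. These were 4021 and 2097 at D7 and 3311 and 1643 in Chronic. The cause was not tested. Of 105 counts, 78 were equal to those reported, 18 changed within 1.5 times and 9 by more, which does not say that the genes called were the same. Of the values, 594 kept their direction and side of the threshold, 9 became stronger, 23 weaker and 4 reversed. Background correction by normexp was not run, since the files hold intensities already corrected. Low signal limits Prdm1 and Ikzf1, and 3 control arrays limit every comparison with Control.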
